A study of Mus musculus with 20 samples.

Results

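The 7 autosomal genes Slc15a5, Cacna2d4, Slc30a2, Mchr1, Fscn2, Npnt and Irx3os of mouse skeletal muscle are described. These 7 of 15709 genes tested (of 53465 in the deposited tables) were selected on the expected counts of these same 20 libraries, because their RNA differed strongly between males and females. The difference between the sexes therefore chose them, and it is given below as a description without a test. Slc15a5 belongs to the proton-coupled peptide transporter family and Slc30a2 encodes the zinc exporter ZnT2. Cacna2d4 encodes an auxiliary alpha2delta subunit of voltage-gated calcium channels, and Mchr1 encodes the receptor for melanin-concentrating hormone. The other 3 genes are neither transporter, channel nor receptor: Fscn2 encodes an actin-bundling fascin, Npnt encodes the extracellular matrix protein nephronectin, and Irx3os is an antisense RNA beside the homeobox gene Irx3.

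RNA from muscle of wild type (WT) mice was sequenced after poly(A) selection with a directional kit, in a study on exercise and age-associated decline. The 20 libraries fell into 4 groups of 5, with females and males each either non-trained or trained, and all animals carried the same WT genotype. The labels name no age, no particular muscle, no training protocol, no time of collection and no batch. Nothing in them ties each library to a separate animal, so p-values measure only how far these samples spread, which may be technical in part.

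As background, solute carriers of the SLC15 family take up small peptides with protons, whereas SLC30 proteins move zinc out of the cytosol into vesicles or out of the cell. Alpha2delta subunits are extracellular proteins that help bring the pore-forming calcium channel subunit to the membrane, and the form encoded by Cacna2d4 is known best from the retina, as is the fascin encoded by Fscn2. Nephronectin is a ligand of integrin alpha8 beta1, and melanin-concentrating hormone is a hypothalamic peptide that acts on feeding through its G protein-coupled receptor. Skeletal muscle differs between the sexes in fibre composition and in its exposure to sex hormones.

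The genes lie on 6 autosomes of GRCm38. Slc15a5 (ENSMUSG00000044378) lies on the minus strand at chr6:137983586-138079916 and Cacna2d4 (ENSMUSG00000041460) on the plus strand of the same chromosome at chr6:119236526-119352407. Slc30a2 (ENSMUSG00000028836) lies on the plus strand at chr4:134343181-134354484, and Mchr1 (ENSMUSG00000050164) on the plus strand at chr15:81235499-81238964. Fscn2 (ENSMUSG00000025380) lies on the plus strand at chr11:120361534-120368168 and Npnt (ENSMUSG00000040998) on the minus strand at chr3:132881745-132950291. Irx3os (ENSMUSG00000046413), annotated as antisense, lies on the plus strand at chr8:91800415-91807539.

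The 250 bases upstream of the start site, from RefSeq on GRCm38.p6, are shown for Slc15a5, Mchr1 and Fscn2, the 3 genes whose window overlaps no annotated exon and holds a match to a searched motif. They let a reader see the sequence next to which these RNAs differ between the sexes. Each is written 5′ to 3′ on the strand of its gene, with capitals marking matches on either strand to AGAACA (a glucocorticoid receptor site core), CANNTG (the E-box) or TATAAA (the TATA motif).
Slc15a5, chr6:138079917-138080166, minus strand: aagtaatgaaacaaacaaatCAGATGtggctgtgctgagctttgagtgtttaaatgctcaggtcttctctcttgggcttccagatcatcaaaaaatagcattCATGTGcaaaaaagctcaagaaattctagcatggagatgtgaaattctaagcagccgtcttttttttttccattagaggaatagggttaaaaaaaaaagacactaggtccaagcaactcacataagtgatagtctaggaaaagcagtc
Mchr1, chr15:81235249-81235498, plus strand: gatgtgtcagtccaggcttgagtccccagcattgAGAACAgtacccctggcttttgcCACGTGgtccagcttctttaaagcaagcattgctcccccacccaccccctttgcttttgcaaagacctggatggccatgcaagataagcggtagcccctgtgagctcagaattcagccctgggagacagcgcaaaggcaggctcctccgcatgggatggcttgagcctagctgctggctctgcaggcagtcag
Fscn2, chr11:120361284-120361533, plus strand: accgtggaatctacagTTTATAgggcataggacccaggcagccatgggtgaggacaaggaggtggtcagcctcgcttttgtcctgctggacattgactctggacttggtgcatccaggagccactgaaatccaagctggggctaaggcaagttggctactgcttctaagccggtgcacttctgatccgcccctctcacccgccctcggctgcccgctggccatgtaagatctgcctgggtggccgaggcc
The Slc15a5 window has a GC content of 37.2%, below the lower quartile of 45.2% over 32851 such windows, and it holds 2 E-box matches at positions -230 and -148 from the start site. The Mchr1 window holds AGAACA at -216 and the E-box CACGTG at -193, and the Fscn2 window holds the TATA motif on the opposite strand at -234.

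Of the 7 genes 6 had a window in the table, with 7 windows in all because Npnt had 2 start sites. AGAACA stood in 1 of the 7 windows and in 16.1% of all 32851 windows of that length. CANNTG stood in 3 of 7 and in 66.2%, and TATAAA in 1 of 7 and in 12.4%. The full palindromic glucocorticoid response element and the full palindromic oestrogen response element stood in none of the 7, and in 0.00913% and 0.0639% of all windows. TTCNNNGAA, the STAT element, also stood in none of the 7, against 7.02%. The windows were searched on both strands, CANNTG, TTCNNNGAA and both palindromes read the same on both, and AGAACA is one arm of the glucocorticoid response palindrome. Each match is a run of letters and no measured binding site.

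Slc15a5 showed the widest gap between the sexes. Values are in CPM, the counts of a gene relative to the TMM-scaled total of its library. In non-trained females libraries 1 to 5 stood at 1.06, 0.182, 0.0648, 0.0439 and 0.533 CPM, and in trained females at 0.516, 1.18, 0.635, 0.402 and 1.05. In non-trained males the 5 libraries stood at 18.6, 18.1, 16.7, 15.1 and 12.3 CPM, and in trained males at 25.7, 19.6, 14.4, 19.1 and 17.3. The lowest male library stood above the highest female library by a wide margin. The log2 difference, male minus female, was 5.32 (SE 0.44) in non-trained and 4.65 (SE 0.41) in trained mice. The ratios of the mean CPM were 42.8 and 25.4. Female libraries held 1 to 38 counts of this gene, so the ratio rests on few female counts. Female non-trained library 1, which also has the highest read total, raised the female mean: without it the non-trained difference was 6.27.

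Slc30a2, the zinc exporter gene, was present in both sexes. Non-trained females stood at 5.01, 2.89, 1.68, 3.87 and 2.36 CPM and trained females at 1.93, 3.11, 1.72, 2.3 and 2.51. Non-trained males stood at 21.8, 19.9, 25.7, 20.2 and 16.6 CPM and trained males at 31.8, 18.1, 10.2, 20.3 and 12.9. The sexes did not overlap, and trained males spread more widely than non-trained males, with an SD of 8.38 against 3.31 CPM. Male minus female, the log2 difference was 2.72 (SE 0.29) in non-trained and 3 (SE 0.30) in trained mice, and the ratios of mean CPM were 6.59 and 8.05.

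Cacna2d4, the calcium channel subunit gene, was low in females, whose libraries held 5 to 33 counts of it. Non-trained females stood at 0.224, 0.517, 0.713, 0.527 and 1.26 CPM and trained females at 0.309, 1.18, 0.544, 0.183 and 0.593. Non-trained males stood at 5.63, 6.75, 6.16, 3.58 and 3.89 CPM and trained males at 7.9, 7.41, 2.38, 4.67 and 5.67. Every male library stood above every female library, the closest being male trained library 3. Males exceeded females by 3.02 (SE 0.43) on the log2 scale in non-trained and by 3.31 (SE 0.44) in trained mice.

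Mchr1, the receptor gene, was separate between the sexes by a narrow gap. Non-trained females stood at 0.923, 0.699, 0.551, 0.703 and 0.61 CPM and trained females at 0.413, 1, 1.31, 0.511 and 2.13. Non-trained males stood at 4.93, 2.67, 5.68, 4.12 and 5.01 CPM and trained males at 4.94, 7.3, 4.73, 6.12 and 8.44. Female trained library 5 was the highest female library and male non-trained library 2 the lowest male one. On the log2 scale the male excess was 2.67 (SE 0.34) in non-trained and 2.55 (SE 0.33) in trained mice.

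Fscn2, the fascin gene, had the lowest median TPM of the 7 genes in males. Non-trained females stood at 0.168, 0.365, 0.194, 0.22 and 0.419 CPM and trained females at 0.172, 0.68, 0.453, 0.475 and 0.209. Non-trained males stood at 1.19, 2.43, 2.35, 0.92 and 1.4 CPM and trained males at 1.68, 1.08, 1.26, 1.93 and 2.46. The sexes did not overlap, although the female libraries held only 5 to 19 counts each. The male excess was 2.59 (SE 0.41) on the log2 scale in non-trained and 2.07 (SE 0.40) in trained mice.

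Npnt, the nephronectin gene, was well above the low-count filter in both sexes, with 84 or more counts in every library. Non-trained females stood at 3.69, 4.23, 2.72, 5.97 and 6.36 CPM and trained females at 3.71, 4.94, 5.53, 5.15 and 6.55. Non-trained males stood at 30.3, 34.2, 34.3, 23.8 and 29.8 CPM and trained males at 62.3, 23.5, 25.8, 42.5 and 24.7. Trained males fell into 3 libraries near the lowest non-trained male and 2 above all of them. Between the sexes the log2 difference was 2.74 (SE 0.28) in non-trained and 2.79 (SE 0.28) in trained mice.

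Irx3os, the antisense RNA, was the exception to full separation. Non-trained females stood at 0.28, 0.182, 0.389, 0.132 and 0.229 CPM and trained females at 0.172, 0.286, 0.408, 0.0365 and 0.418. Non-trained males stood at 2.17, 3.98, 2.84, 2.38 and 0.511 CPM and trained males at 3.29, 2.9, 0.29, 1.27 and 0.802. Male trained library 3 lay inside the female range, and the other 9 male libraries lay above it. The log2 difference was 3.25 (SE 0.63) in non-trained and 2.69 (SE 0.63) in trained mice, with the largest errors of the 7 genes.

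**Figure D1:**
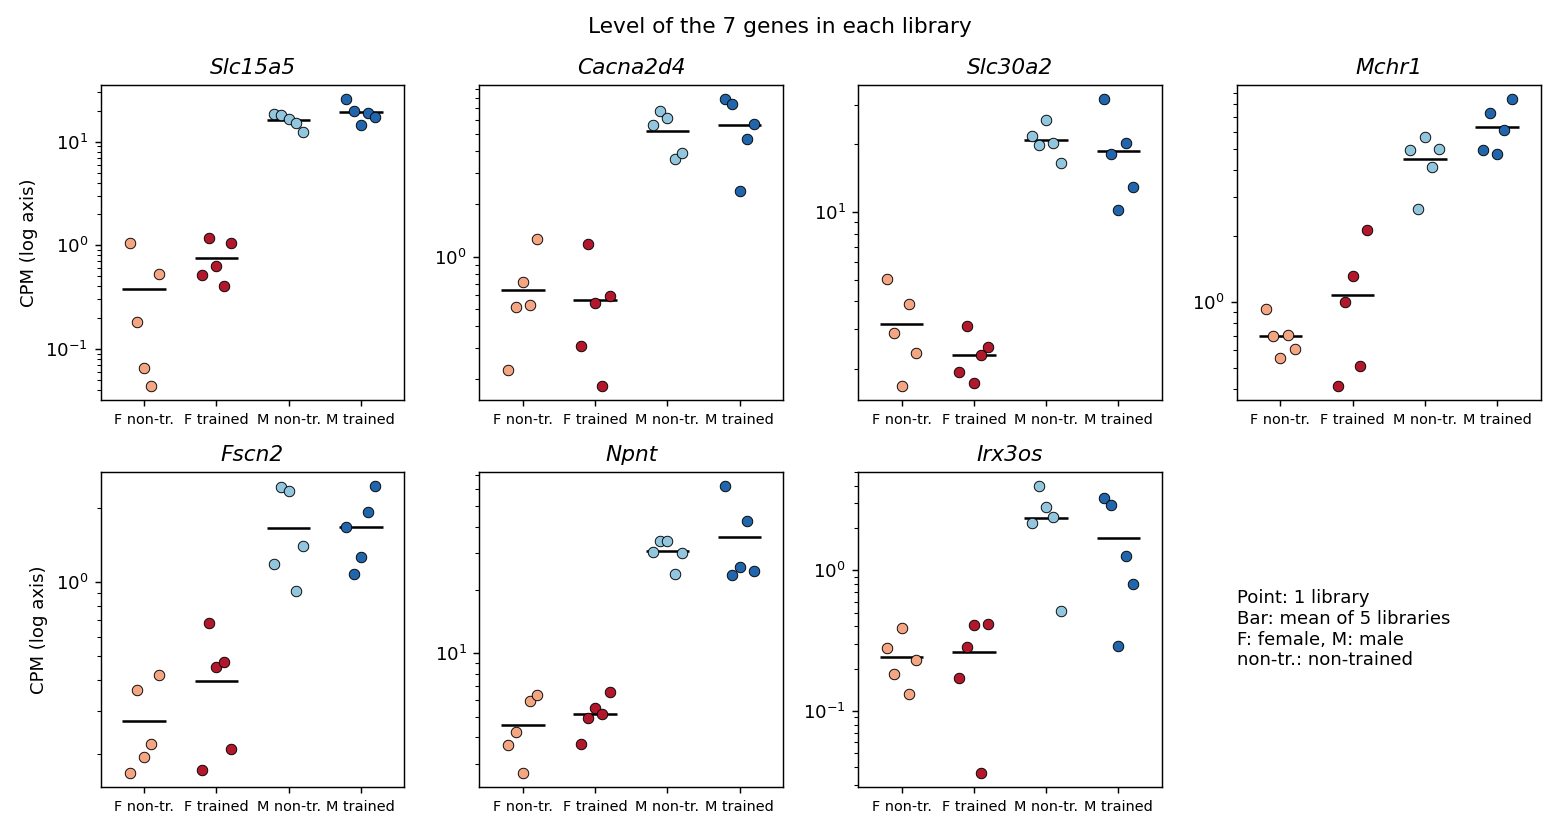
CPM (log axis) of each of the 7 genes in the 20 libraries, with 1 point per library and a bar at the mean of each group of 5. Male points stand above female points for 6 genes, and for Irx3os male trained library 3, at 0.29 CPM, lies among the female points.

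All 7 genes had non-overlapping male and female libraries in non-trained mice, as did 3.98% of the 15709 genes tested in that direction and 2.39% in the other. In trained mice 6 of the 7 did, against 3.92% of all genes (3.46% lower in males), and over all 10 male and 10 female libraries 6 of the 7 did, against 1.02% (0.516% lower in males). The differences chose the genes, so these counts describe the choice. Among 12385 autosomal genes with a mean of at least 1 CPM, the 7 ranked between 2 (Slc15a5) and 19 (Fscn2) by male excess in non-trained mice and between 3 (Slc15a5) and 47 (Fscn2) in trained mice. In whole muscle, fewer cells of a type and less RNA per cell cannot be told apart.

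Per transcript length, on the deposited TPM scale, the order of the 10 male libraries by median was Slc15a5 (16.96 TPM, range 10.6 to 25.83), Npnt (11.54, 8.64 to 23.24), Slc30a2 (9.745, 5.45 to 15.5), Mchr1 (3.75, 1.92 to 5.97), Cacna2d4 (2.43, 0.93 to 4.22), Irx3os (1.7, 0.17 to 2.48) and Fscn2 (1.565, 1.22 to 2.69). In the 10 female libraries Npnt (1.67 TPM) and Slc30a2 (1.195) led, and Slc15a5 (0.67) came next. The ranges of each gene and the next in the order overlapped in both sexes. Slc15a5 was thus the highest of the 7 by median TPM over the 10 male libraries and not over the 10 female libraries. The 2 female groups differed in this. In non-trained females the median of Slc15a5 was 0.46 TPM, below Npnt (1.52) and Slc30a2 (1.33). In trained females it was 1.7 TPM, as was that of Npnt, with Slc30a2 at 1.13. The trained female value of Slc15a5 rests on 11 to 33 counts per library and on a short estimated length (median 921 bases).

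Training was independent of the choice of the genes and could be tested. None of the 7 genes passed an adjusted p of 0.05 (edgeR quasi-likelihood test, Benjamini-Hochberg adjustment over 15709 genes) in females, in males, in the mean of both sexes or in the training by sex interaction. Over all genes tested the percentages called were 0%, 0%, 0.0127% (2 genes) and 0%. At an unadjusted p under 0.05 edgeR found 1347, 676, 1441 and 656 genes, and of the 7 it found 1, Mchr1, in the mean of both sexes. DESeq2 called 33, 5, 30 and 1 genes in the same order and limma-voom called 0 in each, and neither called any of the 7.

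Mchr1 came closest. Its log2 difference, trained minus non-trained, was 0.61 (SE 0.35, 95% interval -0.12 to 1.34) in females and 0.49 (SE 0.30, -0.13 to 1.12) in males. In females 3 of 5 trained libraries stood above every non-trained one, and in males also 3 of 5. The mean of both sexes was 0.55 (SE 0.23, 95% interval 0.07 to 1.03), with an unadjusted p of 0.0263 and an adjusted p of 0.480 (edgeR), so it did not pass.

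Slc15a5 had the widest gap between training states in females, with a mean of 0.377 ± 0.430 CPM (SD, n = 5) in non-trained and 0.756 ± 0.340 CPM (SD, n = 5) in trained mice. The log2 difference was 0.92 (SE 0.51, 95% interval -0.14 to 1.98, edgeR adjusted p 0.642). All 5 trained female libraries stood above the median of the non-trained ones, and 1 stood above all of them. Without female non-trained library 1 the difference was 1.87, with an adjusted p of 0.245. In males it was 0.25 (SE 0.32, -0.43 to 0.93, adjusted p 0.993).

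The other 5 genes gave intervals on both sides of 0 in each sex. In females the log2 differences were -0.18 (95% interval -1.16 to 0.8) for Cacna2d4, -0.45 (-1.09 to 0.2) for Slc30a2, 0.54 (-0.35 to 1.42) for Fscn2, 0.18 (-0.4 to 0.77) for Npnt and 0.09 (-1.34 to 1.52) for Irx3os. In males they were 0.11 (-0.67 to 0.89), -0.16 (-0.72 to 0.4), 0.02 (-0.73 to 0.77), 0.23 (-0.29 to 0.76) and -0.47 (-1.61 to 0.66) in the same order. These intervals leave room for changes of more than 1 on the log2 scale in females for Cacna2d4, Slc30a2, Fscn2 and Irx3os. The median over the 7 genes was 0.18 in females and 0.11 in males, beside 0.00 over all genes tested in each sex.

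The sex difference itself did not differ detectably between training states. The interaction, the male training effect minus the female one, was -0.67 (95% interval -1.92 to 0.59) for Slc15a5, 0.29 (-0.97 to 1.55) for Cacna2d4 and 0.29 (-0.56 to 1.14) for Slc30a2. It was -0.12 (-1.06 to 0.82) for Mchr1, -0.52 (-1.67 to 0.64) for Fscn2, 0.05 (-0.74 to 0.84) for Npnt and -0.56 (-2.4 to 1.27) for Irx3os. The edgeR adjusted p was 0.999 for each of the 7.

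**Figure D2:**
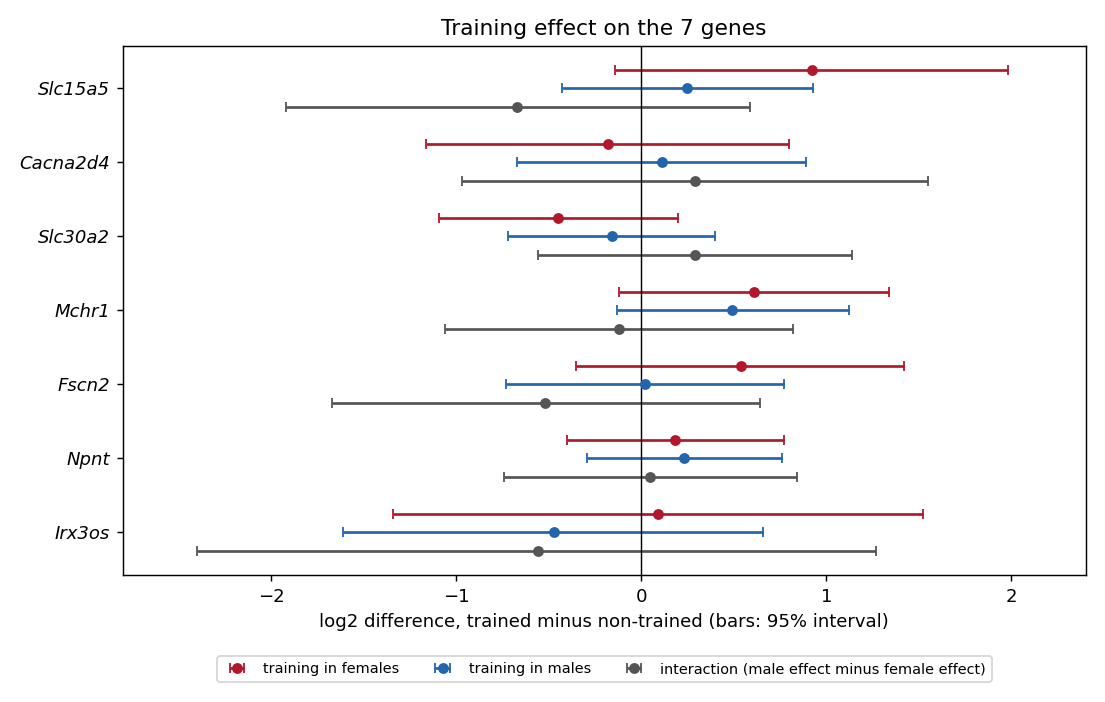
Log2 difference, trained minus non-trained, in females and in males, and the interaction, for each of the 7 genes. The 95% intervals were derived from the edgeR fit. Each interval includes 0, and the widest are those of Irx3os, from -2.4 to 1.27 for the interaction.

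The spread among libraries of the same group was also independent of the choice. For each library the log2 CPM minus its group mean was taken, and 31 pairs of genes were compared, 21 in the 10 male libraries and 10 in the 10 female libraries. Slc15a5 and Irx3os did not enter in females because some female libraries held fewer than 5 counts of them. In males 16 of 21 pairs had a positive Pearson r, with a median of 0.4 and a range from -0.35 to 0.89, and in females 7 of 10 did, with a median of 0.305 and a maximum of 0.48. The share of ordinary gene pairs with such values within a sex was not computed, and the libraries share depth and composition. Over all 20 libraries, r with 11721 genes had a median of -0.02 and a 99th percentile of 0.71 for Slc15a5 and for Slc30a2. The 99th percentile was 0.62 for Irx3os and 0.5 for Fscn2.

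After adjustment over the 31 pairs 1 pair passed. Slc15a5 and Irx3os gave r = 0.89 in the 10 male libraries (two-sided exact permutation within training state, p = 0.00139, adjusted p = 0.0431) and Spearman's rho = 0.82 (exact permutation p = 0.0059, adjusted p = 0.0847). Without male non-trained library 5 and male trained library 3, the 2 farthest from the median of Slc15a5, r was 0.69 (exact permutation p = 0.0972), so the pair no longer passed with fewer libraries and fewer arrangements. RSEM divided reads between Irx3os and Irx3 by estimation, as described below, so each r with Irx3os carries that uncertainty. The Irx3os share of the pair ran up to 36.9% in males. It was lowest in these 2 libraries, at 8.34% and 5.65%.

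Slc15a5 also ran with Slc30a2 (r = 0.86, rho = 0.78, exact permutation p = 0.00354 and 0.0148, adjusted 0.0549 and 0.115) and with Cacna2d4 (r = 0.82, rho = 0.83, exact permutation p = 0.0102 and 0.00819, adjusted 0.0791 and 0.0847). Cacna2d4 ran with Irx3os (r = 0.83, rho = 0.87, exact permutation p = 0.00639 for both, adjusted 0.066 and 0.0847). Slc30a2 ran with Irx3os (r = 0.79, rho = 0.68, exact permutation p = 0.0128 and 0.0816, adjusted 0.0792 and 0.422). None of these 4 passed after adjustment. Without the 2 farthest libraries r was 0.8, 0.68, 0.91 and 0.63 in the order given. In the male libraries r of Mchr1 with the other 6 genes lay between -0.35 (Npnt) and 0.13 (Cacna2d4). In the female libraries Mchr1 gave r = 0.44 with Npnt, 0.33 with Slc30a2, 0.28 with Cacna2d4 and -0.02 with Fscn2, and the difference between the sexes was not tested. In trained males library 3 was the lowest of its group for 5 of the 7 genes and library 1 the highest for 5 of the 7.

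**Figure D3:**
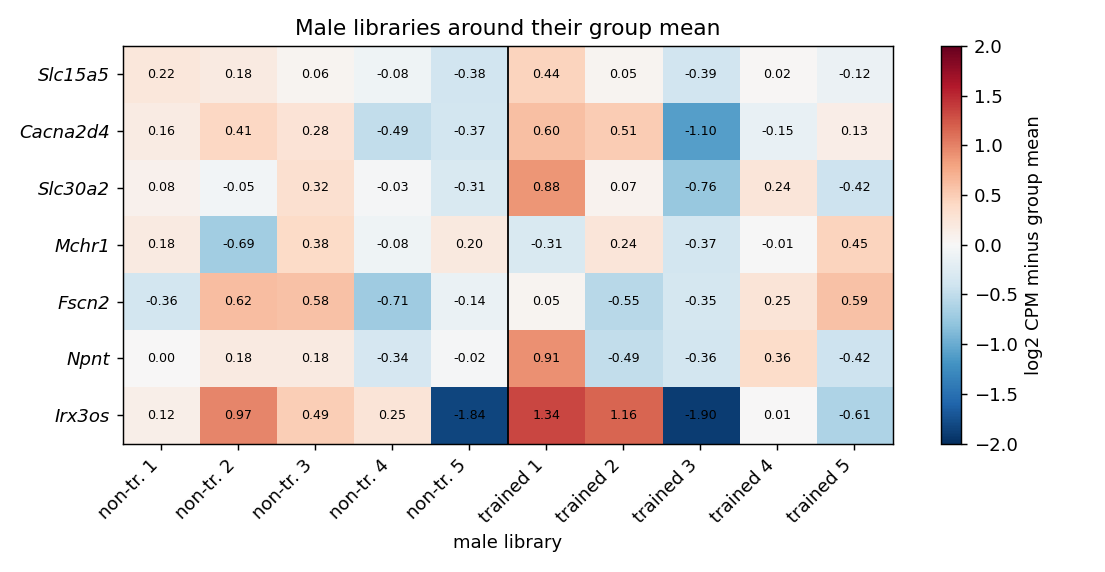
Log2 CPM minus the group mean of the 7 genes in each of the 10 male libraries, printed in each cell and coloured from blue (below the mean) to red (above it). Male trained library 3 is the lowest of its group for 5 genes and male trained library 1 the highest for 5.

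Markers of other cells moved with sex beside these genes. Of 8 markers of slow fibres, 6 had less RNA in males than in females without training and 1 with it (edgeR adjusted p under 0.05). Their summed level was 1181 to 4942 CPM in non-trained females, 496 to 6214 in trained females, 355 to 1615 in non-trained males and 744 to 2015 in trained males. Of 8 macrophage markers, 4 were higher in non-trained and 6 in trained males, with sums of 38.9 to 111 CPM, 60.4 to 121, 133 to 306 and 106 to 623 in the same order, and none was at 0 in every library. The 623 CPM belong to male trained library 3, the library that is low for 5 of the 7 genes. Without it the trained male minus female values of the 7 genes were 4.74 (Slc15a5), 3.5 (Cacna2d4), 3.15 (Slc30a2), 2.64 (Mchr1), 2.16 (Fscn2), 2.88 (Npnt) and 2.95 (Irx3os). Of 6 erythroid genes, 2 (Hba-a1 and Alas2) were higher in non-trained males and none passed in trained mice. Their sums were 194 to 472 CPM in non-trained females, 223 to 807 in trained females, 243 to 3754 in non-trained males and 239 to 365 in trained males. The 3754 CPM belong to male non-trained library 4. With each of the 20 libraries left out in turn, that one included, the non-trained male minus female values of the 7 genes lay between 2.41 (Fscn2) and 6.27 (Slc15a5).

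Of 9 Schwann cell markers, 2 (Cldn19 and Ncmap) were lower in trained males, and the sums were 46.8 to 176 CPM in non-trained females, 83.9 to 338 in trained females, 118 to 235 in non-trained males and 97.8 to 128 in trained males. Of 10 neuromuscular and denervation genes 1 passed: Musk, which encodes a synaptic receptor kinase of muscle, had more RNA in males by 1.28 (SE 0.15, edgeR adjusted p 2.16e-05) and 1.85 (SE 0.15, adjusted p 3.08e-07). The sums of that list were 73.5 to 126 CPM in non-trained females, 85.2 to 133 in trained females, 79.7 to 168 in non-trained males and 113 to 170 in trained males. Among satellite cell markers Vcam1 passed in trained mice (0.62, adjusted p 0.0438), and among epithelial and acinar markers Krt8 passed in non-trained mice (3.15, adjusted p 0.0498), with Csn2 at 0 in every library. No adipocyte, endothelial, smooth muscle and pericyte, fibro-adipogenic or tendon marker passed. The fibro-adipogenic sums nevertheless ran higher in males, with overlapping ranges. They were 141 to 648 CPM in non-trained females, 387 to 579 in trained females, 612 to 1037 in non-trained males and 548 to 812 in trained males. The part of any of these cells in the differences of the 7 genes between the sexes was not tested.

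The muscle identity of the libraries was plain, with 10 of 10 fibre markers tested, none called by sex, and Ckm, the muscle creatine kinase gene, at group means of 15265 to 16071 CPM. Photoreceptor markers, included because Fscn2 and Cacna2d4 are known from the retina, summed to 0.176 to 0.771 CPM over the 20 libraries, none of the 8 passed the low-count filter, and Crx, a photoreceptor transcription factor gene, was at 0 in every library. Of 8 neuron markers 3 were tested and none was called. Read totals per library ran from 22043145 to 38483572.

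Irx3os and Irx3 overlap on opposite strands and share 124 exonic bases, which is 3.33% of the 3725 exonic bases of Irx3os and 4.49% of the 2762 of Irx3. Irx3 encodes an Iroquois homeobox transcription factor. RSEM gave fractional counts to both genes: a whole number, within 0.011, was found in 3 of 20 libraries for each, but their sum was whole in 19 of 20. The other 6 genes were whole in all 20 libraries. Reads were therefore divided between Irx3os and Irx3 by estimation, and the strand setting of the counting was not given in the sources used here, so their single values are uncertain.

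The sum of the pair avoids that division. It was 3.03 ± 0.488 CPM (SD, n = 5) in non-trained females, 2.20 ± 1.14 in trained females, 8.29 ± 1.70 in non-trained males and 7.90 ± 2.20 in trained males. Its ranges were 2.51 to 3.78, 1.13 to 3.63, 6.19 to 10.8 and 5.21 to 11.1 CPM, so the sexes did not overlap. The sum of male trained library 3 lay above the female range, but 152.85 of its 162 counts were given to Irx3. Irx3 alone stood at 4.92 CPM there, above the highest female library at 3.64. The sum therefore does not settle the level of Irx3os in that library. Irx3os made up 3.59% to 12.3% of the pair in non-trained females, 3.23% to 21.8% in trained females, 8.34% to 36.9% in non-trained males and 5.65% to 32.7% in trained males. Irx3 alone was higher in males by 1.09 (SE 0.25, edgeR adjusted p 0.0142) in non-trained and by 1.67 (SE 0.25, adjusted p 0.0005) in trained mice.

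**Figure D4:**
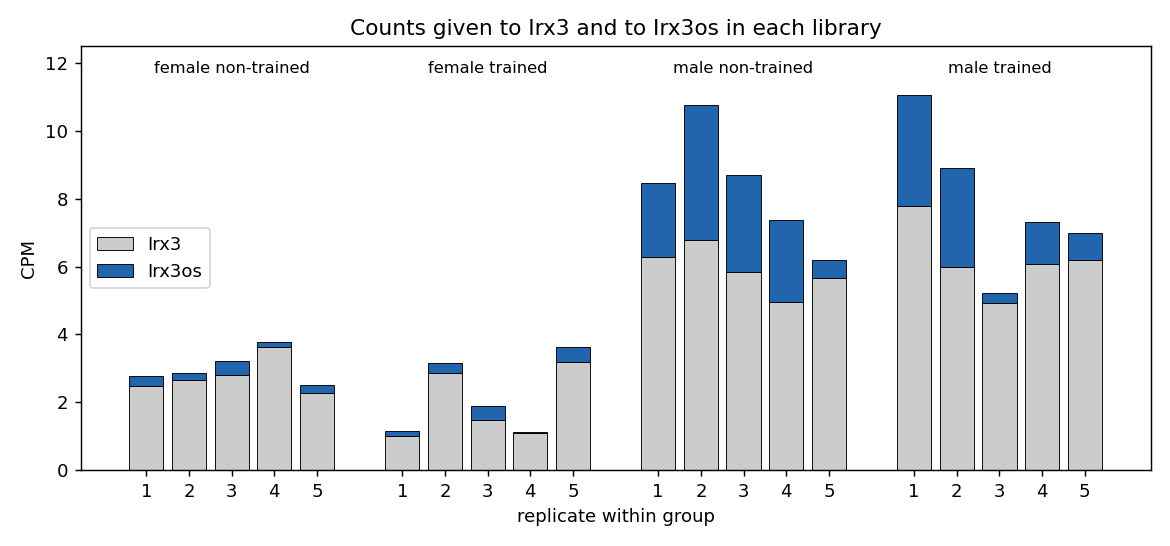
CPM of Irx3 (grey) and Irx3os (blue), stacked for each of the 20 libraries by group. The full bar, their sum, lies between 1.13 and 3.78 CPM in female libraries and between 5.21 and 11.1 CPM in male libraries.

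Of the other neighbouring genes, Mgst1 was higher in males. It encodes a microsomal glutathione transferase and starts 60400 bases from Slc15a5 on the opposite strand. It stood at 10.1 ± 1.99 CPM (SD, n = 5) in non-trained females and 39.9 ± 2.86 in non-trained males, a log2 difference of 1.99 (SE 0.16, edgeR adjusted p 2.02e-07). In trained mice it stood at 16.5 ± 3.43 and 50.4 ± 10.9 CPM, a difference of 1.61 (SE 0.16, adjusted p 2.75e-06). Dera, on the other side of Slc15a5, gave 0.11 and -0.03 and did not pass. Lrtm2 lies inside Cacna2d4 on the opposite strand without sharing an exonic base, and gave 2.32 (SE 0.62, adjusted p 0.0316) in non-trained and 1.66 (SE 0.59, adjusted p 0.103) in trained mice. Of the nearest tested genes on either side of Cacna2d4, Slc30a2, Mchr1, Fscn2, Npnt and Irx3os, none passed in either training state.

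Genes of the same families and pathways were listed beside the 7. Of 87 such genes that passed the low-count filter, of 122 in the files and without the 7 genes, 11 passed between the sexes without training, 7 of them up and 4 down in males (12.6%). With training 9 passed, 6 up and 3 down (10.3%). Over all genes tested 5.21% passed without training, 3.14% up and 2.07% down, and 5.6% with it, 3.39% up and 2.22% down. The lists were chosen with earlier results of these data known. Irx3, which is among the genes called in both training states, shares estimated reads with Irx3os. The shares are therefore a description, and no excess over all genes was tested. No listed gene passed in any training comparison. The count in non-trained mice was 5 without female library 2, male library 2 or male library 3, and the count in trained mice was 3 without male library 3, 4 without female library 1 and 5 without female library 4 or male library 2.

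Among the 3 other peptide transporter genes tested, Slc15a4, a lysosomal peptide and histidine transporter gene, was higher in males by 0.70 (SE 0.17, edgeR adjusted p 0.0179) and 0.73 (SE 0.17, adjusted p 0.0138) in non-trained and trained mice. Its level was 11.6 ± 3.13 CPM in non-trained females and 18.9 ± 2.78 in non-trained males (SD, n = 5 each). Slc15a2 and Slc15a3 did not pass.

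Among 18 other calcium channel subunit genes, Cacng7 was higher in males by 0.54 (SE 0.14, adjusted p 0.0254) and 0.50 (SE 0.14, adjusted p 0.0383). Cacna1s, the pore-forming subunit of skeletal muscle, was lower in trained males by 0.36 (log2 difference -0.36, SE 0.10, adjusted p 0.0287) and gave -0.08 in non-trained mice. The other 3 alpha2delta genes, named after their values were seen, did not pass: Cacna2d1 stood at 499 ± 48.8 CPM in non-trained females with differences of -0.05 and 0.07, and Cacna2d2 and Cacna2d3 stood near 1 CPM or below.

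Among 21 other zinc transport genes, Slc30a9 was lower in males by -0.31 (SE 0.07, adjusted p 0.0076) and -0.27 (SE 0.07, adjusted p 0.0167) on the log2 scale. Mtf1, the metal-responsive transcription factor gene, was lower in non-trained males at -0.27 (adjusted p 0.0494), and its call was lost without TMM scaling (adjusted p 0.152). Of the melanin-concentrating hormone and melanocortin genes only 3 besides Mchr1 were tested and none passed, the highest being Mc5r and Mrap. Pmch, which encodes the ligand precursor of the receptor, was at 0 in all libraries except trained males, where it ranged from 0 to 0.166 CPM. It was named after its values were seen.

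Among 9 other fascin and actin bundler genes Lcp1, the leukocyte plastin gene, passed in trained mice at 1.87 (SE 0.54, adjusted p 0.0483) and gave 1.5 (adjusted p 0.107) in non-trained mice, beside the macrophage markers above. Among 14 partners of nephronectin, Frem2, a basement membrane protein gene, gave -1.19 (SE 0.30, adjusted p 0.0244) in non-trained and -0.90 (adjusted p 0.0781) in trained mice. The laminin genes Lama2 and Lama5 gave 0.55 (SE 0.15, adjusted p 0.0333) and 0.40 (SE 0.10, adjusted p 0.0238) in non-trained mice and did not pass in trained mice. Itga8, the integrin subunit that binds nephronectin, gave 0.14 and -0.28 without passing and was named after its values were seen.

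Several of 15 hormone receptor and pathway genes passed in at least 1 training state. Igf1, a growth factor gene, was higher in males by 1.22 (SE 0.29, adjusted p 0.0200) and 1.46 (SE 0.29, adjusted p 0.0069). Esr1, an oestrogen receptor gene, gave -0.46 (SE 0.12, adjusted p 0.0260) and -0.19 (adjusted p 0.386). Srd5a3 gave 0.89 (SE 0.20, adjusted p 0.0139) and 0.39, and Igf1r gave -0.17 and -0.32 (SE 0.08, adjusted p 0.0270). The call of Igf1r in trained mice was lost without TMM scaling (-0.25, edgeR adjusted p 0.059).

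**Figure D5:**
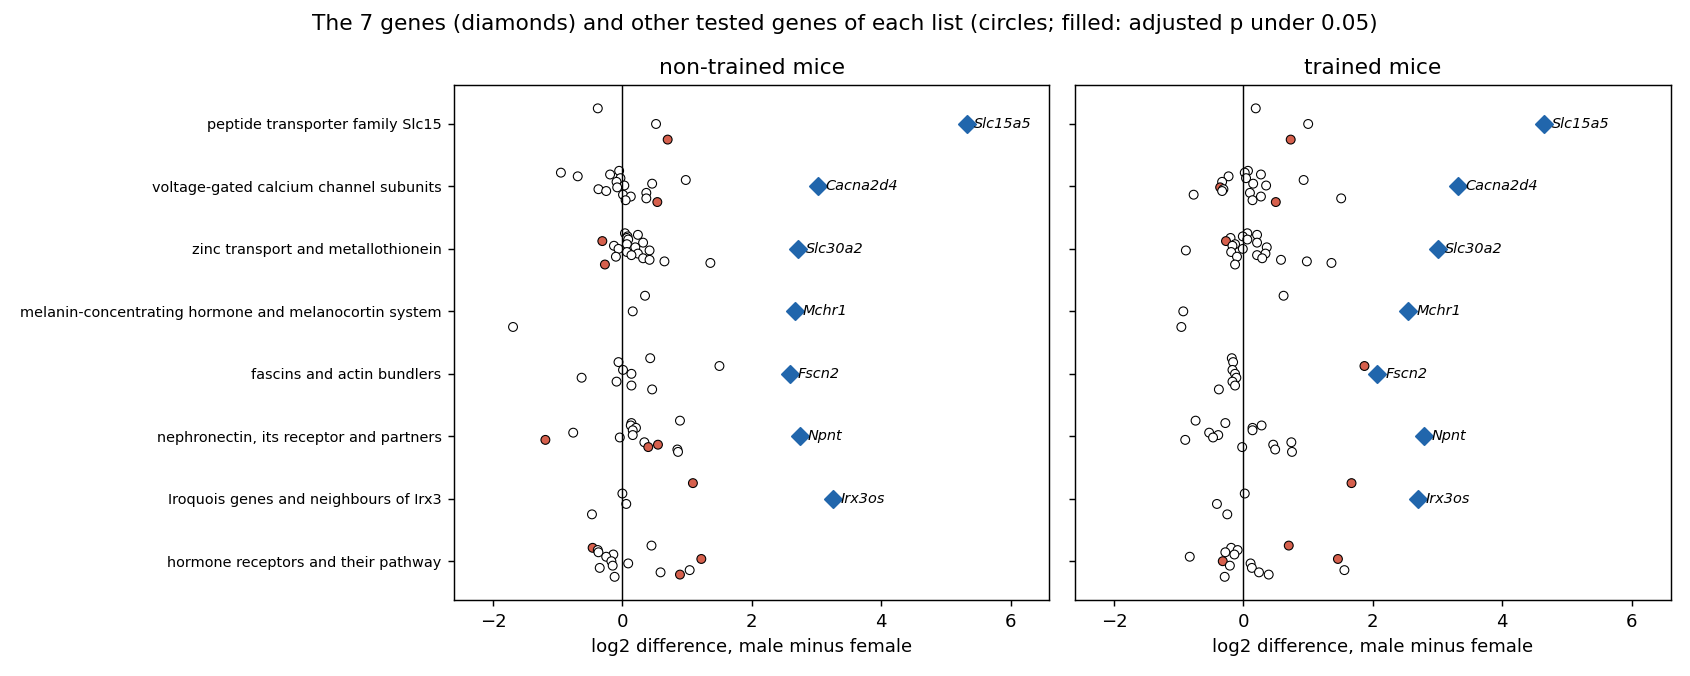
Log2 difference, male minus female, of the listed family genes in non-trained and trained mice, with the genes past an adjusted p of 0.05 marked. The 7 genes picked for their sex difference lie above the other genes plotted, from 2.07 to 5.32, and the choice of genes sets that.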

How the data were processed

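The authors deposited 1 RSEM table per library. It gives expected counts per gene, which the authors estimated and which need not be whole, with TPM, FPKM and gene length in base pairs beside them, per the file headers. The submitters' processing notes name, without roles, RSEM 1.3.1 and STAR 2.5.1, the build GRCm38, and limma, edgeR, cutadapt and Trim Galore. Which annotation release served was not given in the sources used here. GENCODE M21 gave symbols to 53360 of 53465 gene identifiers, and the rest held 0.00673% of the counts.

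Expected counts were rounded and filtered with filterByExpr (minimum count 10). The 20 libraries were scaled by TMM and fitted with 1 coefficient for each of 4 groups in edgeR 4.0.16 (robust quasi-likelihood, R 4.3.3). Adjusted p-values are Benjamini-Hochberg over 15709 genes. Log2 CPM used a prior count of 2. TPM only ordered the genes. The procedure was tested on simulated counts. The 7 genes and the lists were chosen with earlier results of these data known. The text names the 7 genes, up to 4 called genes per list (otherwise up to 2 of the highest level), overlapping and nearest genes, and the 3 genes most like each of the 7; some genes that this rule takes are left out of the text. Alternatives were DESeq2 1.42.0, limma-voom (limma 3.58.1), RLE factors, no TMM, other low-count filters, fewer groups in the fit, removal of mitochondrial and highest genes, a prior count of 0.5, FPKM, and each library left out. Promoters came from RefSeq (GRCm38.p6). Values of samples other than these 20 were not analysed here.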

Additional observations from a re-analysis of the deposited data

How the results depend on the processing

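The 7 genes gave 768 training values under the alternatives, and 738 kept their direction and their side of the threshold, while 30 reversed. None of the 7 passed under any alternative. With limma-voom the training difference of Irx3os in females was -0.17, and the interaction was 0.17 for Mchr1 and -0.13 for Npnt; the cause was not tested. With each library left out, reversals occurred in these ranges: in females Cacna2d4 -0.65 to 0.2 and Irx3os -0.15 to 0.36; in males Cacna2d4 -0.05 to 0.31, Fscn2 -0.16 to 0.2 and Npnt -0.07 to 0.35; in the mean Cacna2d4 -0.27 to 0.15; in the interaction Cacna2d4 -0.09 to 0.76, Mchr1 -0.31 to 0.3 and Npnt -0.25 to 0.2. Of 392 sex values of the 7 genes, 391 stayed within the spread and 1 moved, that of Slc15a5 without female non-trained library 1 (6.27). The 11 listed genes called in non-trained mice became 18 with DESeq2 and 5 with only the groups compared (fewer samples in the fit), and 5 to 14 with a library left out. The 9 in trained mice became 13 with DESeq2 and 5 without the low-count filter (more genes tested) and 3 to 12 with a library left out. Without TMM 75.03% of all called genes were higher in non-trained males, against 60.3%, and 79.6% in trained males, against 60.5%. The 1 pair of genes that passed became 0 without the 2 farthest libraries. No paired analysis was possible because the labels give no replicate numbers shared between groups. Depth limits Slc15a5, Cacna2d4, Fscn2 and Irx3os in females, where libraries held as few as 1, 5, 5 and 1 counts.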

Other observations

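Genes whose deviations from the group means were most like those of each gene are given as a description over 20 libraries that share depth and composition, among 11721 genes. Slc15a5 was most like Paf1 (r = 0.83), Snx21 (0.83) and Aldh1a1 (0.82), where the 99th percentile of all genes was 0.71. Cacna2d4 was most like Ramp1 (r = 0.85), Lrtm2 (0.82), which lies inside it, and Aig1 (0.78), with a 99th percentile of 0.58. Slc30a2 was most like Pacsin3 (0.9) and St3gal3 (0.84), with 0.71. Mchr1 was most like Dcdc2b (0.88), Lzts1 (0.82) and Crhr2 (0.72), with 0.52. Fscn2 was most like Dpm1 (0.75), Tmem14a (0.73) and Dph7 (0.73), with 0.5. Npnt was most like Dusp27 (0.83), Chst11 (0.77) and Galnt17 (0.76), with 0.55, and Irx3os was most like Rabl3 (0.85), Ntf5 (0.83) and Ntmt1 (0.81), with 0.62.

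The gene length that RSEM estimated from the transcripts in use varied between groups for several of the 7 genes. Over libraries with at least 10 counts the median of Slc15a5 was 921 bases (476 to 976) in the 5 trained female libraries, 1776 in the 5 non-trained male and 1617 in the 5 trained male libraries, and 2066 in the 2 non-trained female libraries that reached 10 counts. Mchr1, which has 1 annotated transcript, stood at 2188 in every group. Fscn2 stood at 842 to 860 in 2 non-trained female libraries, 1072 to 1713 in 3 trained female libraries, 1256 to 1620 in non-trained males and 1175 to 1713 in trained males. Cacna2d4 had group medians from 2112 (non-trained females) to 4014 (trained males). The lengths of Slc15a5, Fscn2 and Cacna2d4 in females rest on few counts, and no difference in length was tested.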
